A study of Mus musculus with 12 samples.

Results

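The 47 genes examined here encode the thin filament, the Z-disc and the M-band of the sarcomere, with the myosin light chains, myosin binding proteins, titin, the titin-linked ankyrin repeat proteins, desmin and the factors that help the filaments assemble. Membership rests on the gene's name. Every probe of the array that the deposited table assigns to 1 of these symbols was taken, which gave 100 of 56605 probes, and the myosin heavy chains and troponins were left out. Of the 100 probes, 89 for 46 genes were tested because all 3 arrays of some condition had them well above background, among 29644 tested probes of the whole array. A probe could enter through the condition in which it was high, so the counts over tested probes do not speak for all members.

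RNA came from C2C12 cells, an established line of mouse myoblasts from the C3H strain that stops dividing and fuses into myotubes when serum is withdrawn. All samples were transfected, either with siControl or with siBach1, an siRNA against Bach1, a transcriptional repressor that binds DNA together with small Maf proteins and is released by haem. RNA was taken at day 0, without induction of differentiation, or at day 2 after confluent cells had been moved to 2% horse serum. The 4 conditions were siControl day 0, siBach1 day 0, siControl day 2 and siBach1 day 2, with 3 arrays each. The methods name a single siRNA against Bach1 for the arrays, so other effects of that siRNA and the loss of Bach1 cannot be told apart. The labels number the replicates without saying whether they were separate cultures, and p-values measure the spread between these samples only.

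In the sarcomere, thin filaments of actin are wrapped by tropomyosin, ruled in length by nebulin and leiomodin and anchored in the Z-disc by alpha-actinin. They slide past thick filaments of myosin, which are crosslinked at the M-band by myomesins, and titin runs from the Z-disc to the M-band as a spring and scaffold. Myoblasts hold little of this machinery. When they differentiate, myogenic basic helix-loop-helix factors such as MyoD and myogenin, Mef2 and serum response factor switch the muscle isoforms on, while many of the non-muscle isoforms that fill stress fibres are produced by other genes or by alternative promoters and exons of the same genes.

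Values below are normalized log2 signals, that is log2 of the scanner's background-subtracted intensity minus the array's 75th percentile, so that 0 is the 75th percentile of an array. They compare arrays for a probe and not probes with each other. Bach1 checked the labels: its signal was 1.73, 1.55 and 1.78 on the siControl and 0.18, -0.22 and -0.22 on the siBach1 arrays of day 0, and 2.56, 2.55 and 2.58 against 0.57, 0.56 and 0.65 at day 2. Both differences passed the test, at -1.77 and -1.97 (limma adjusted p = 1.2e-05 and 1.4e-05). Hmox1, the haem oxygenase that Bach1 represses, was higher by 3.30 and 3.12. The share of probes well above background was 47.6% to 58.9% by array, and no spot was saturated. Replicates 1 and 2 were on 1 slide and replicate 3 on another, and each condition had its own column of positions on both slides, so position and condition cannot be told apart. Of 6 myoblast markers on the array, 5 cleared the background on all 12 arrays, while Adipoq and Cfd of fat cells, Acan of cartilage, Adgre1 of macrophages and Cdh5 and Kdr of endothelium were on none of the 12. Of the markers listed for those and other cell types, 4 of 5 smooth muscle, 4 of 6 cardiac, 2 of 5 adipocyte, 3 of 6 bone and cartilage, 3 of 4 leukocyte and 1 of 3 endothelial genes cleared the background on each siControl array of day 2.

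The promoters shown are those of 5 of the genes with probes called for siBach1 against siControl at day 2: Actn2, Actc1 and Myl2 were lower, and Synpo2 and Obsl1 higher on some of their probes. Those of Ttn, which had the largest rise, and of Pdlim3, Ldb3 and Tpm3, also called there, are not shown. Each line is the stretch of 250 bases before the annotated start, 5′ to 3′, as RefSeq gives it on GRCm38.p6, with capitals for matches to the E-box (CANNTG), the Mef2 site, the CArG box of serum response factor or the MCAT word of Tead factors (CATTCC on either strand). The Actn2 stretch is chr13:12340733-12340982 on the minus strand, that of Actc1 chr2:114052876-114053125 on the minus strand, that of Myl2 chr5:122092474-122092723 on the plus strand (the more upstream of 2 starts), that of Synpo2 chr3:123236150-123236399 on the minus strand and that of Obsl1 chr1:75506453-75506702 on the minus strand.

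Actn2: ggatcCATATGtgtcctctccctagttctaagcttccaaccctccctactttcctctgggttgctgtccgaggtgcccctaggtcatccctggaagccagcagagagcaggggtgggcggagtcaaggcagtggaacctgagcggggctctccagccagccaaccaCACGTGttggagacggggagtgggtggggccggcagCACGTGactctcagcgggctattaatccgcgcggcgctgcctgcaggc
Actc1: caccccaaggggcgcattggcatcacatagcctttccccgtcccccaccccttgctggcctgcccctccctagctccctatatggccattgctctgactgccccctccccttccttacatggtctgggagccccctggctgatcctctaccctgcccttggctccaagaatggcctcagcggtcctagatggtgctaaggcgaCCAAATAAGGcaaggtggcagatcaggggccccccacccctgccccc
Myl2: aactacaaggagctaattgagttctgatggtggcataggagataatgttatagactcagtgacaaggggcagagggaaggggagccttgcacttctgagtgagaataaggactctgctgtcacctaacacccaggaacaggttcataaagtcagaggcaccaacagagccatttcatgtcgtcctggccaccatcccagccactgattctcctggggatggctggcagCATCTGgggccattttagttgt
Synpo2: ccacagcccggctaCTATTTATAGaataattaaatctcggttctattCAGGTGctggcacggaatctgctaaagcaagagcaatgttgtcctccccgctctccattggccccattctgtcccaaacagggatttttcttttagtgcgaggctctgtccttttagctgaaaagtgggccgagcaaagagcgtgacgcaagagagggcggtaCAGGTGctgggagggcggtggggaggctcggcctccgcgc
Obsl1: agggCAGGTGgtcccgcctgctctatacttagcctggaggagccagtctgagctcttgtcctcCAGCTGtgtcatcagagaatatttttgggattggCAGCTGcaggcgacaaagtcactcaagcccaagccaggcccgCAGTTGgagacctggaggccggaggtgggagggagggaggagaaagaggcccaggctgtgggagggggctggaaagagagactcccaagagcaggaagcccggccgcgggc

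Actn2 held 3 E-boxes. Actc1 held a CArG box and no E-box, Myl2 a single E-box, Synpo2 a Mef2 site and 2 E-boxes, and Obsl1 4 E-boxes. A promoter was at hand for 37 of the 47 genes, and none for Actn3, Cryab, Lmod3, Myom2, Myot, Myoz1, Myoz3, Neb, Tcap and Xirp1.

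With 1 promoter per gene, an E-box on either strand stood in 78.4% of the 37 member genes and 66.1% of all 27025 genes, and the CAGCTG form of it in 32.4% and 12.7%. The CArG box was found in 13.5% of member genes against 1.41% of all genes, the Mef2 site in 16.2% against 3.03% and the MCAT word in 24.3% against 12.6%.

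The words linked to Bach1 and its partners had shares in member genes near those in all genes. TGANTCA, the core shared by AP-1 and Maf dimers, stood in 2 of 37 member genes, or 5.41%, against 6.85% of all genes. TGANNNNGC, the core of the antioxidant response element, stood in 12 of 37, or 32.4%, against 35.1%. Of the 5 windows shown, those of Actn2, Myl2 and Obsl1 held TGANNNNGC and none held TGANTCA, and no letter is capitalised for these words. A match says that these letters are there and not that a factor bound them.

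Most of the set rose between day 0 and day 2. In siControl cells 76 of 89 member probes were higher and 6 lower at day 2 than at day 0, where 24.6% of all tested probes were higher and 28.7% lower. In siBach1 cells 76 were higher and 4 lower, against 23.8% and 32.3% of all tested probes. The median member probe had a log2 change of 3.25 with siControl and 2.73 with siBach1 (2.93 and 2.73 with 6 probes in each that were below background at day 0 set to the lower bound of their change), while the median over all tested probes was 0.00 and -0.07. With a fold of at least 2 as well, 70 were higher and 3 lower with siControl (10.5% and 9.46% of all tested probes) and 72 higher and 2 lower with siBach1 (10.9% and 9.6%). The days did not overlap on 77 higher and 6 lower probes with siControl (29.1% and 32.8% of all) and on 76 and 4 with siBach1 (25.9% and 35.4%). With 1 probe per gene, 41 of 46 genes were higher and 1 lower in siControl cells. The 2 comparisons share no array. In RNA from whole cultures, fewer cells that have differentiated and less RNA per cell cannot be told apart.

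**Figure D1:**
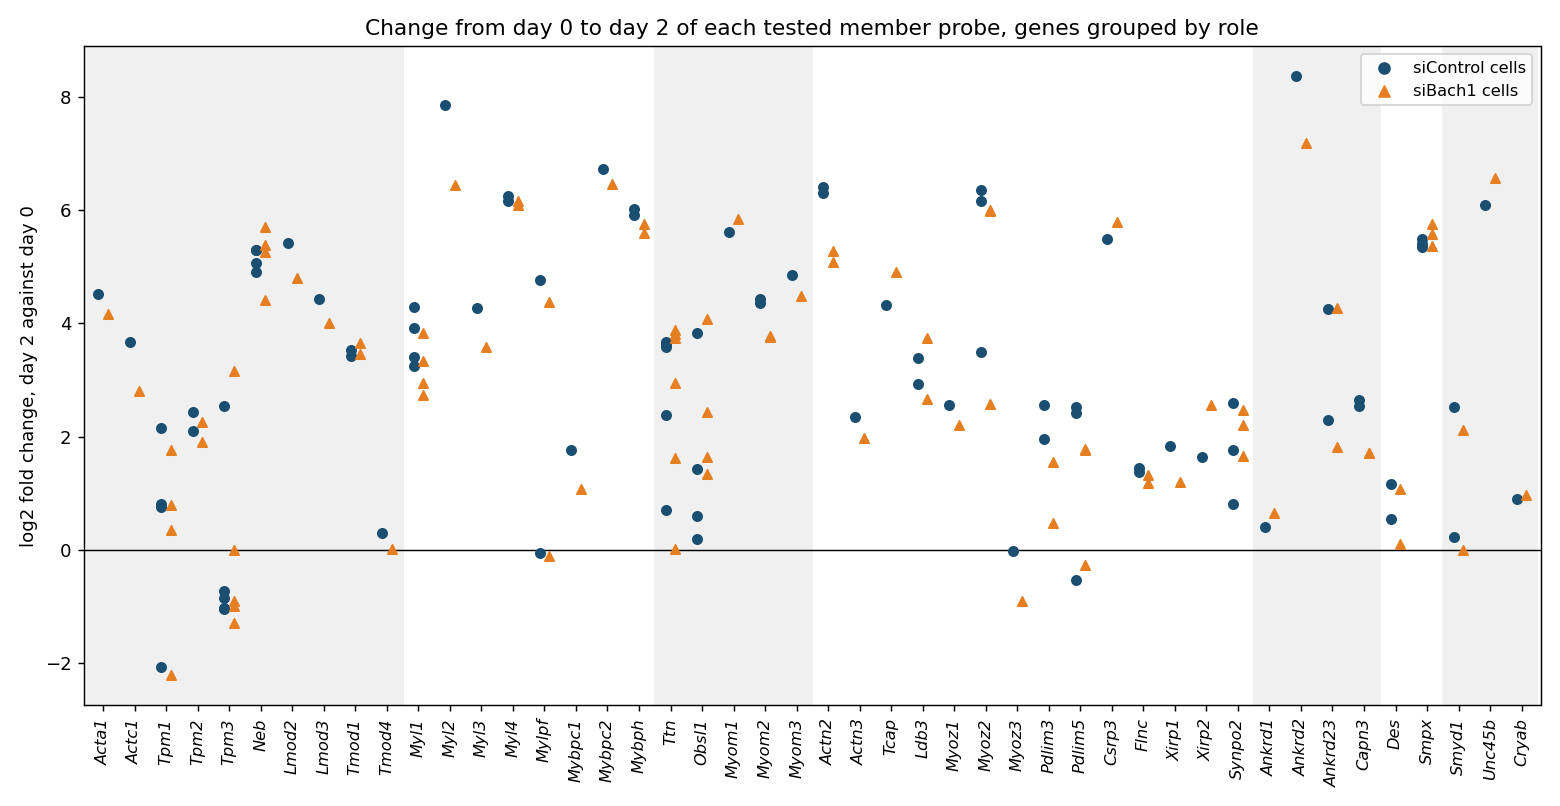
Change from day 0 to day 2 (log2 fold change, vertical axis) of each of the 89 tested member probes, with the 46 genes in order of role along the horizontal axis. Circles are siControl cells and triangles siBach1 cells, each symbol 1 probe from 3 against 3 arrays. For the 6 probes in each that were below background on all day 0 arrays the symbol is the fitted value and not a measured fold. Most symbols lie above 0, up to 8.37 for Ankrd2, while probes of Tpm1 and Tpm3 lie on both sides of 0.

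Among the thin filament genes, 16 of 22 probes were higher and 5 lower in siControl cells. Acta1, the skeletal alpha-actin, went from 4.54, 3.90 and 4.07 on the 3 siControl arrays of day 0 to 8.76, 8.68 and 8.64 at day 2, a rise of 4.52 (standard error 0.17, limma adjusted p = 3.2e-08). Likewise the cardiac alpha-actin Actc1, which embryonic and cultured skeletal muscle also uses, changed by 3.67. Nebulin (Neb), the ruler of the thin filament, rose on all 4 tested probes, by 5.06 to 5.30 on 3 of them. Among those, A_55_P2116968 was well above background on 1 and A_55_P2645738 on 2 of the 3 siControl arrays of day 0. The fourth, A_55_P2718815, was well above background on no siControl array of day 0, and was at least 15.1-fold higher at day 2 (limma adjusted p = 1.9e-06). Leiomodin 2 (Lmod2), a nucleator of actin filaments, was likewise well above background on none of those 3 arrays and at least 13.4-fold higher at day 2 (limma adjusted p = 4e-08), and its relative Lmod3 rose by 4.43. For such bounds, here and below, the limma adjusted p is that of the fitted difference, and the bound itself was not tested. Probes given with a bound entered the test only through their day 2 arrays. The capping protein tropomodulin 1 (Tmod1) rose by 3.52 and 3.42 on its 2 probes. Of 3 probes for Tmod4, the skeletal tropomodulin, only 1 was tested, and it gave 0.30 (standard error 0.24, limma adjusted p = 0.34, and adjusted p = 0.037 in limma with the replicate number as a block).

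The tropomyosins, coiled coils that lie along actin and are made in muscle and non-muscle forms from the same genes, did not move as one. Tpm2 rose on both probes, by 2.44 and 2.10. For Tpm1, A_66_P105457 went from 4.89, 4.80 and 4.82 at day 0 to 6.99, 7.07 and 6.91 at day 2 in siControl cells, and A_55_P2187053 and A_65_P17289 rose by 0.81 and 0.76. The other Tpm1 probe, A_55_P2078680, went the other way, from -0.52, -0.09 and -0.44 to -2.29, -2.84 and -2.16, and fell by 2.07 (standard error 0.20, limma adjusted p = 9.7e-06), the lowest value of all 89 probes. In siBach1 cells the same probe gave -2.22 and A_55_P2187053 did not pass the test, at 0.35 (limma adjusted p = 0.092, and 0.0081 with the replicate number as a block). Tpm3 fell on 4 of 5 probes in siControl cells. A_55_P2090209 went from 7.83, 7.79 and 7.82 to 6.87, 6.58 and 6.89, and A_55_P2933119 from 2.32, 2.48 and 2.37 to 1.48, 1.29 and 1.32, with log2 changes of -1.04 and -1.03. A_55_P2507335 went from 5.30, 5.26 and 5.07 to 4.46, 4.30 and 4.34 and A_51_P462153 from 1.53, 1.68 and 1.47 to 0.90, 0.86 and 0.72, with changes of -0.84 and -0.73. On none of the 4 did the days overlap. The remaining Tpm3 probe, A_55_P2090205, rose from -0.65, -0.76 and -0.50 to 1.96, 2.14 and 1.61, by 2.54 (standard error 0.18, limma adjusted p = 1.5e-06). The deposited table assigns the probes of each gene to different transcripts, except that A_55_P2090209 and A_55_P2507335 of Tpm3 share one. Probe sequences were not at hand, so which further transcripts of a gene each probe reads cannot be told.

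**Figure D2:**
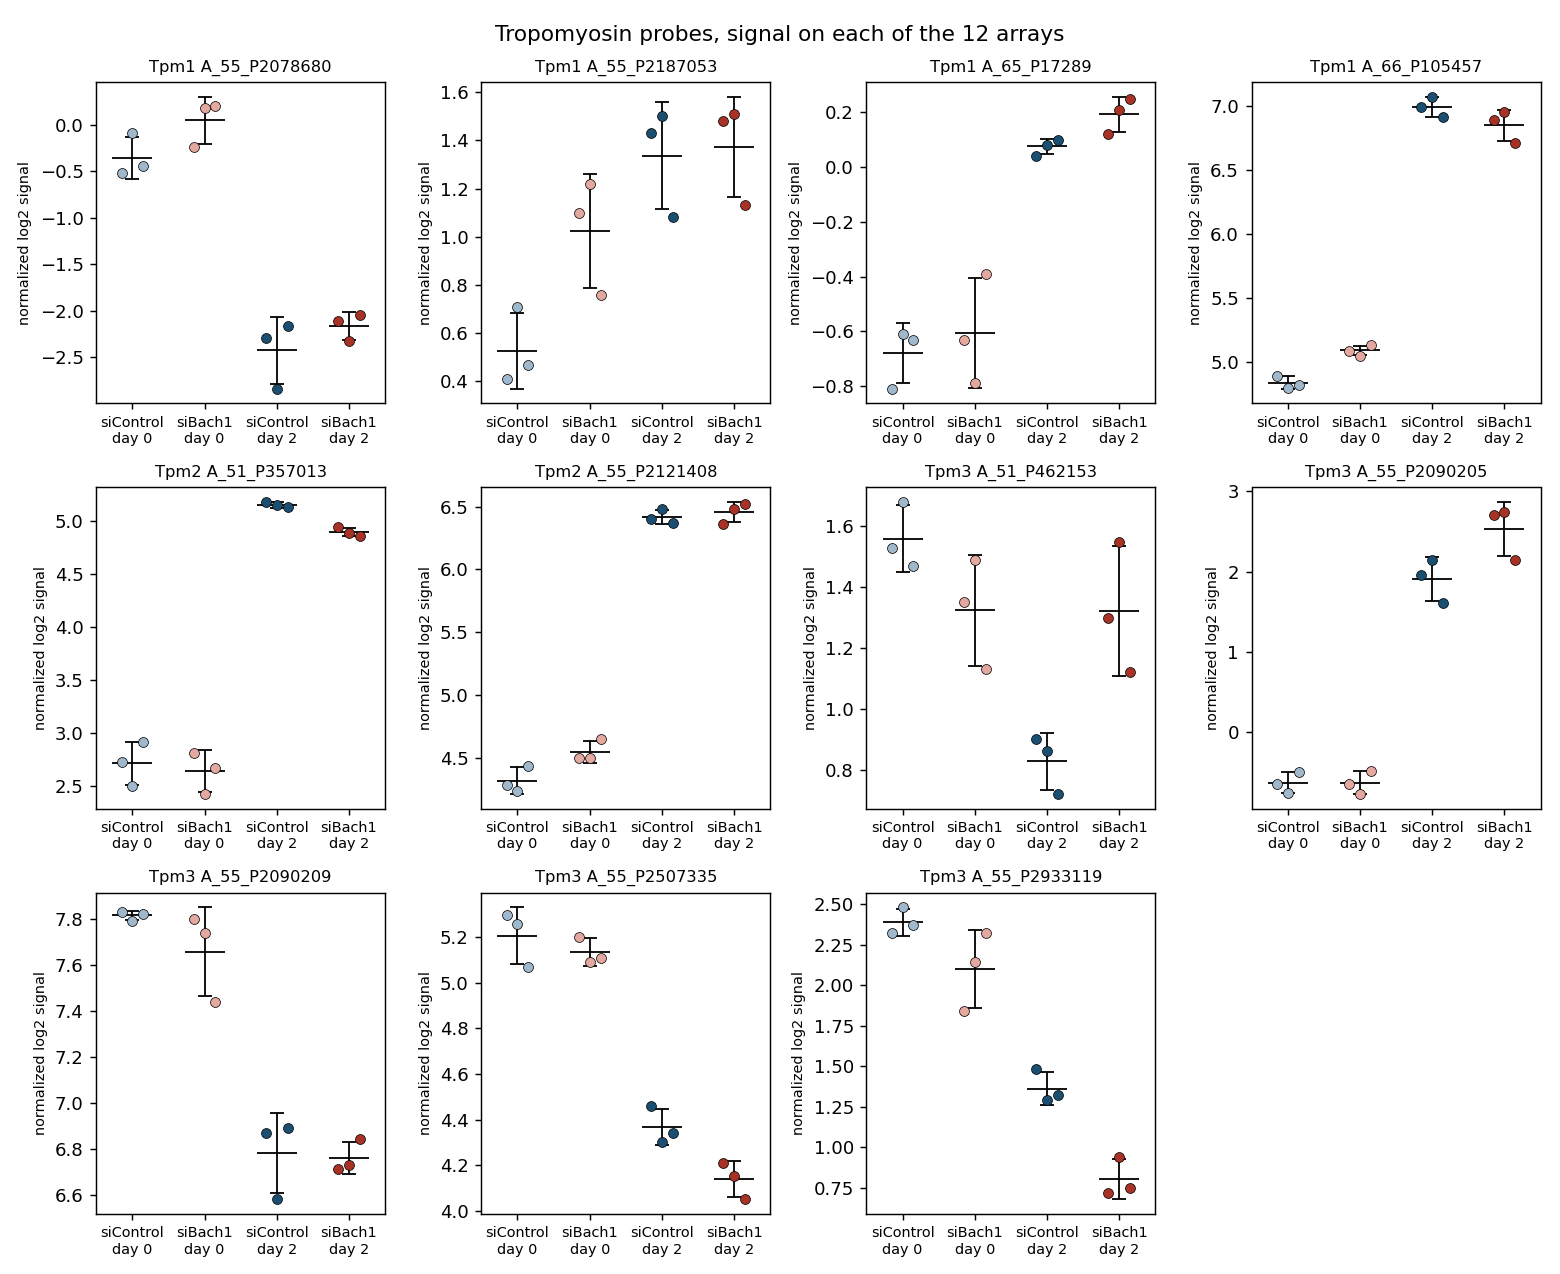
Normalized log2 signal (vertical axis, own scale in each panel) of the 11 tested tropomyosin probes on each of the 12 arrays, grouped by siRNA and day. Points are arrays, the bar is the mean of 3 arrays and the whiskers 1 SD. From day 0 to day 2, A_55_P2078680 of Tpm1 and 4 Tpm3 probes fell in siControl cells while the other 6 probes rose.

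Of the thick filament light chains and binding proteins, 13 of 14 probes were higher at day 2 and none lower in siControl cells. Myl2, the slow and ventricular regulatory light chain, was -5.88, -6.82 and -5.37 at day 0, well above background on none of the 3 arrays, and 2.29, 1.68 and 1.50 at day 2, at least 88.4-fold higher (limma adjusted p = 1.4e-07). Mybpc2, the fast myosin binding protein C, went from -5.62, -6.90 and -6.47, also not above background, to 0.55, 0.67 and -0.03, at least 32.8-fold higher (limma adjusted p = 2.2e-06). The embryonic and atrial light chain Myl4 rose by 6.25 and 6.16 on its tested probes and Mybph, myosin binding protein H, by 5.92 and 6.02. The fast light chain Myl1 rose by 3.25 to 4.28 over 4 probes, the slow and ventricular light chain Myl3 by 4.26 and the slow-type Mybpc1 by 1.76 on its single tested probe. Mylpf, the fast regulatory light chain, rose by 4.77 on A_52_P383572, whereas A_55_P2058591 gave -0.06 with a 95% interval of -0.36 to 0.24.

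Titin and the M-band genes were higher on 12 of 14 probes and lower on none. Myomesins crosslink the thick filaments, and Myom1 rose by 5.60, Myom3 by 4.86 and Myom2 by 4.42 on A_51_P431785. The second Myom2 probe, A_52_P322523, was well above background on no siControl array of day 0 and was at least 8.36-fold higher at day 2 (limma adjusted p = 4.6e-05). Of 6 titin (Ttn) probes, 5 rose, by 2.39 to 3.67, and A_66_P130044 gave 0.70 (limma adjusted p = 0.099). Obsl1, a relative of obscurin that joins titin and myomesin at the M-band, was uneven: in siControl cells A_51_P479583 rose by 3.83, A_52_P661982 by 1.44 and A_52_P286002 by 0.61, and A_65_P09450 gave 0.19 with an interval of -0.05 to 0.44. In siBach1 cells all 4 rose, by 1.34 to 4.07.

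In the Z-disc, 22 of 24 probes were higher and 1 lower. Actn2, the alpha-actinin that crosslinks thin filaments in striated muscle, went from -4.25, -5.61 and -4.76 to 1.53, 1.74 and 1.30 on A_51_P108266, a change of 6.40 (standard error 0.39, limma adjusted p = 5.8e-07), with 1 of the 3 day 0 arrays well above background. On A_65_P13435, which was above background on all of them, it changed by 6.31, from -1.96, -2.73 and -2.70 to 3.89, 4.05 and 3.60. The calcineurin-binding Myoz2 went from -2.28, -3.08 and -2.86 to 3.62, 3.93 and 3.31 on A_51_P248638 and rose by 6.36, and by 6.16 on A_65_P13823. Its dim probe A_52_P403266, below background on all day 0 arrays, was at least 2.30-fold higher (limma adjusted p = 7.1e-06). No day 0 array of Actn2 or Myoz2 reached a day 2 array on these probes. Rises followed of 5.49 for the muscle LIM protein Csrp3, 4.32 for Tcap, which caps titin in the Z-disc, 3.40 and 2.93 for Ldb3 (also called ZASP), 2.55 for Myoz1 and 2.35 for the fast-fibre alpha-actinin Actn3. Myoz1 was well above background on 1 of the 3 siControl arrays of day 0. The LIM domain proteins Pdlim3 and Pdlim5 rose by 1.97 and 2.56, and by 2.42 and 2.52, while another Pdlim5 probe, A_55_P2817053, fell by 0.53. Xin proteins bind actin at sites of repair and the intercalated disc, and Xirp1 and Xirp2 rose by 1.84 and 1.64, Xirp2 with 2 of 3 day 0 arrays well above background. The actin-bundling Synpo2 (myopodin) rose by 0.81 to 2.60 over 3 probes, and filamin C (Flnc) by 1.38 and 1.44. Myoz3 was the Z-disc gene with no change that passed, at -0.02 (interval -0.97 to 0.94).

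Among members with all day 0 arrays well above background, the largest change was that of Ankrd2, a stretch-responsive ankyrin repeat protein that binds titin in the I-band. Its signal went from -2.23, -3.08 and -3.39 to 5.19, 5.63 and 5.58 in siControl cells, a change of 8.37 (standard error 0.29, limma adjusted p = 1.8e-08). Its relative Ankrd23 rose by 4.25 and 2.30, and Ankrd1 only by 0.41, from 5.97, 5.91 and 5.73 to 6.22, 6.45 and 6.16. The muscle calpain Capn3, a protease held on titin, rose by 2.55 and 2.64. Smpx, a small stretch-related protein of the costamere, rose by 5.35 to 5.49 on 3 probes, and the intermediate filament desmin (Des) by 1.16 on A_51_P335969, with 0.55 on A_55_P2718707 (limma adjusted p = 0.3). Smpx A_55_P2609194 was well above background on 2 of the 3 siControl arrays of day 0. Of the assembly factors, the myosin chaperone Unc45b rose by 6.09, the methyltransferase Smyd1, which works with it, by 2.53 on A_55_P2062495 and the small heat shock protein Cryab by 0.91. The other Smyd1 probe, A_51_P468055, gave 0.24 (interval -0.60 to 1.07). A normexp background correction, which lifts dim signals, lowered the change of Actn2 A_51_P108266 to 4.18 and gave fitted changes of 4.60 for Myl2 and 3.41 for Mybpc2, all past the test in limma. These last values are smaller than the bounds given above, so the bounds hold for the scanner's own background subtraction only. In siBach1 cells the change of Ankrd2 was 7.18, and Myl2 and Actn2 A_51_P108266, well above background on none of their day 0 arrays, were at least 18.0-fold and 16.4-fold higher at day 2.

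At day 2 few members differed past the test between siBach1 and siControl cells, and those that did went in both directions. Of 89 member probes 7 were higher and 6 lower in siBach1 than in siControl cells, shares of the same order as the 5.75% and 6.26% of all tested probes. The probes that were lower read the alpha-actinin Actn2, the light chain Myl2, the actin Actc1, Pdlim3 and Tpm3, and those that were higher read Ttn, Synpo2, Ldb3, Obsl1 and Tpm3. Past the test and at least 2-fold, 2 were higher and 3 lower, against 1.52% and 0.651% of all. The median member probe was at -0.11, against -0.01 for all tested probes. Of the 89 member probes 33 lay above 0 and 56 below, where 48.1% of all tested probes lay above 0. With 1 probe per gene, 35 of 46 genes lay below 0, with a median of -0.16, and 4 passed the test as lower and 1 as higher. The groups did not overlap on 29 probes in the lower and 15 in the higher direction, where 17.2% and 15.7% of all tested probes did not.

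**Figure D3:**
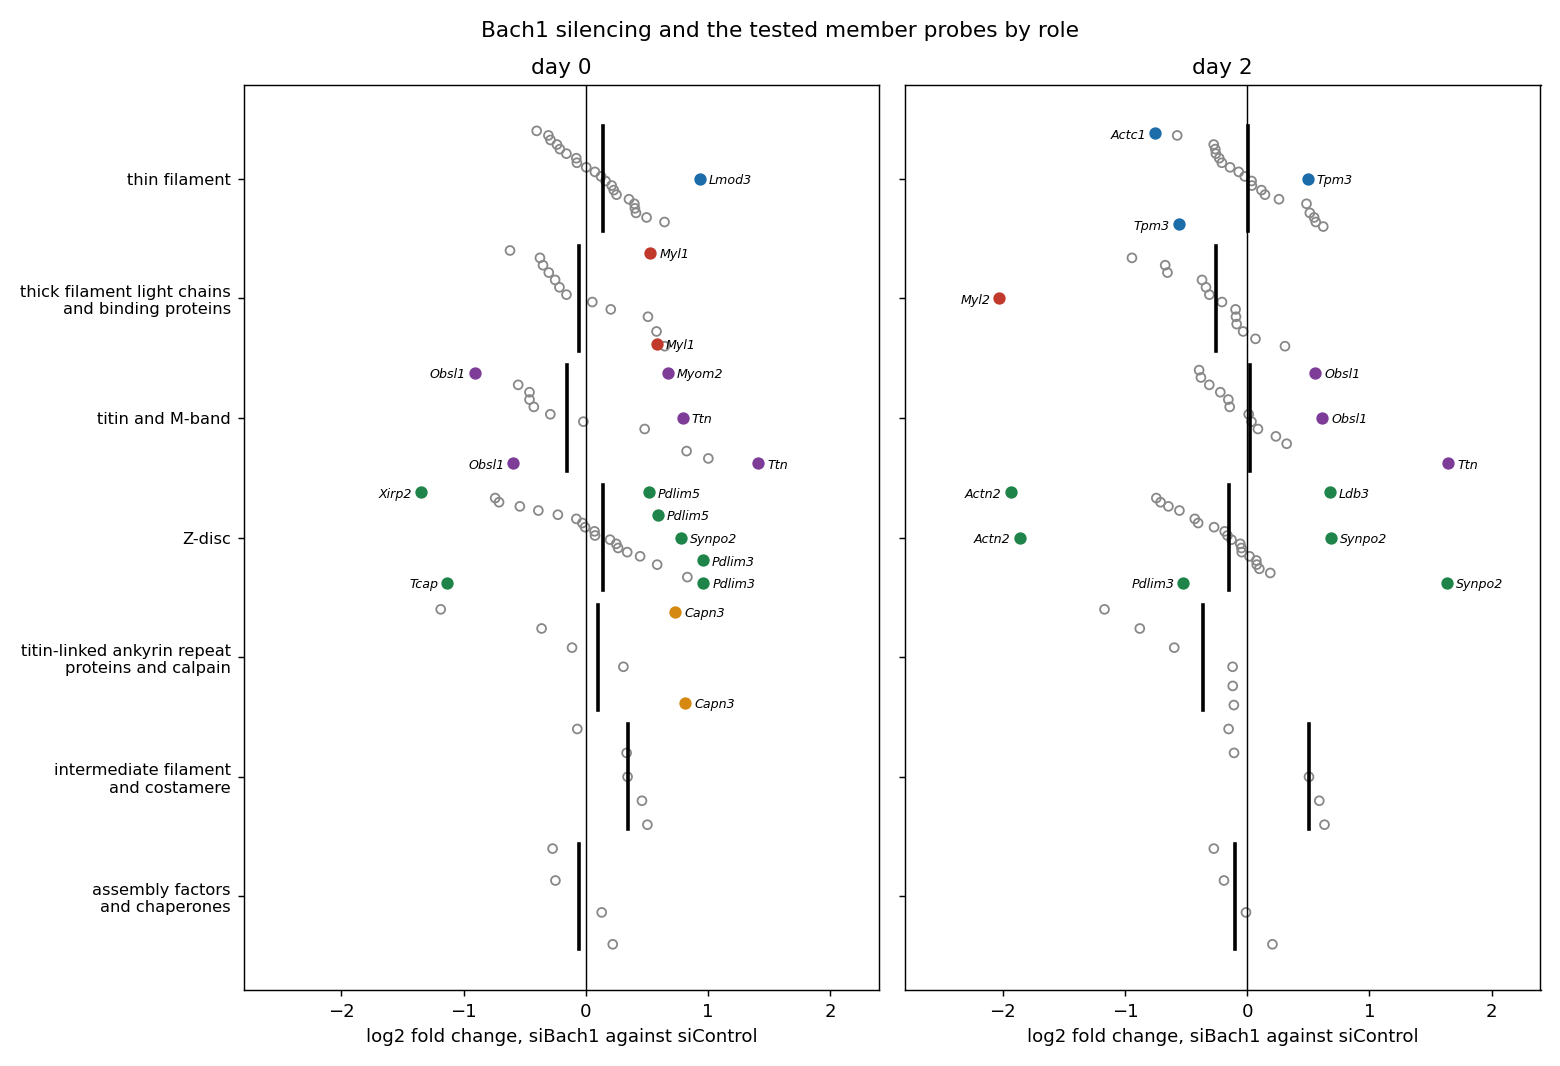
Log2 fold change of siBach1 against siControl (horizontal axis) at day 0 and day 2 for the 89 tested member probes, in rows by role; height within a row has no meaning. Filled points passed the test at an adjusted p under 0.05 and carry the gene's name, open points did not, and the black bar is the median of the row. At day 2, Myl2 and both Actn2 probes stand near -2 and a Ttn and a Synpo2 probe near 1.6.

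Myl2 was 2.29, 1.68 and 1.50 on the siControl arrays of day 2 and 0.15, -0.28 and -0.49 on the siBach1 arrays. Every siBach1 array lay below every siControl array, and the difference of -2.03 (standard error 0.38, limma adjusted p = 0.0084) made it 4.08-fold lower. At day 0 Myl2 was well above background on no array of either group, so no fold is given there.

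Actn2 was lower on both tested probes. A_65_P13435 gave 3.89, 4.05 and 3.60 in siControl and 2.07, 2.19 and 1.47 in siBach1 cells at day 2, a difference of -1.93 (standard error 0.26, limma adjusted p = 0.0016), and A_51_P108266 gave 1.53, 1.74 and 1.30 against -0.15, -0.14 and -0.73, a difference of -1.86 (standard error 0.39, limma adjusted p = 0.014). The groups did not overlap on either. Without the third siBach1 array of day 2 the difference on A_51_P108266 was -1.67 and its limma adjusted p was 0.051. On the day 0 arrays A_65_P13435 was -1.96, -2.73 and -2.70 in siControl and -2.83, -3.29 and -3.38 in siBach1 cells, with no overlap but a difference of -0.71 that did not pass (limma adjusted p = 0.088, and 0.022 with the replicate number as a block).

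Actc1 was 7.90, 7.93 and 7.97 in siControl and 7.24, 7.21 and 7.09 in siBach1 cells at day 2, and the difference of -0.75 (standard error 0.10, limma adjusted p = 0.0016) stood far outside the spread within either group. The skeletal actin Acta1 gave 8.76, 8.68 and 8.64 against 8.22, 8.18 and 7.95. Its groups did not overlap either, but its difference of -0.57 missed the threshold (limma adjusted p = 0.061). Pdlim3, a LIM protein that binds alpha-actinin, was 6.41, 6.54 and 6.42 against 5.90, 6.01 and 5.89 on A_52_P579531 (-0.52, standard error 0.11, limma adjusted p = 0.012), while its probe A_55_P2737992 gave -0.06. With quantile normalization A_52_P579531 gave -0.39 and missed the threshold (limma adjusted p = 0.054).

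**Figure D4:**
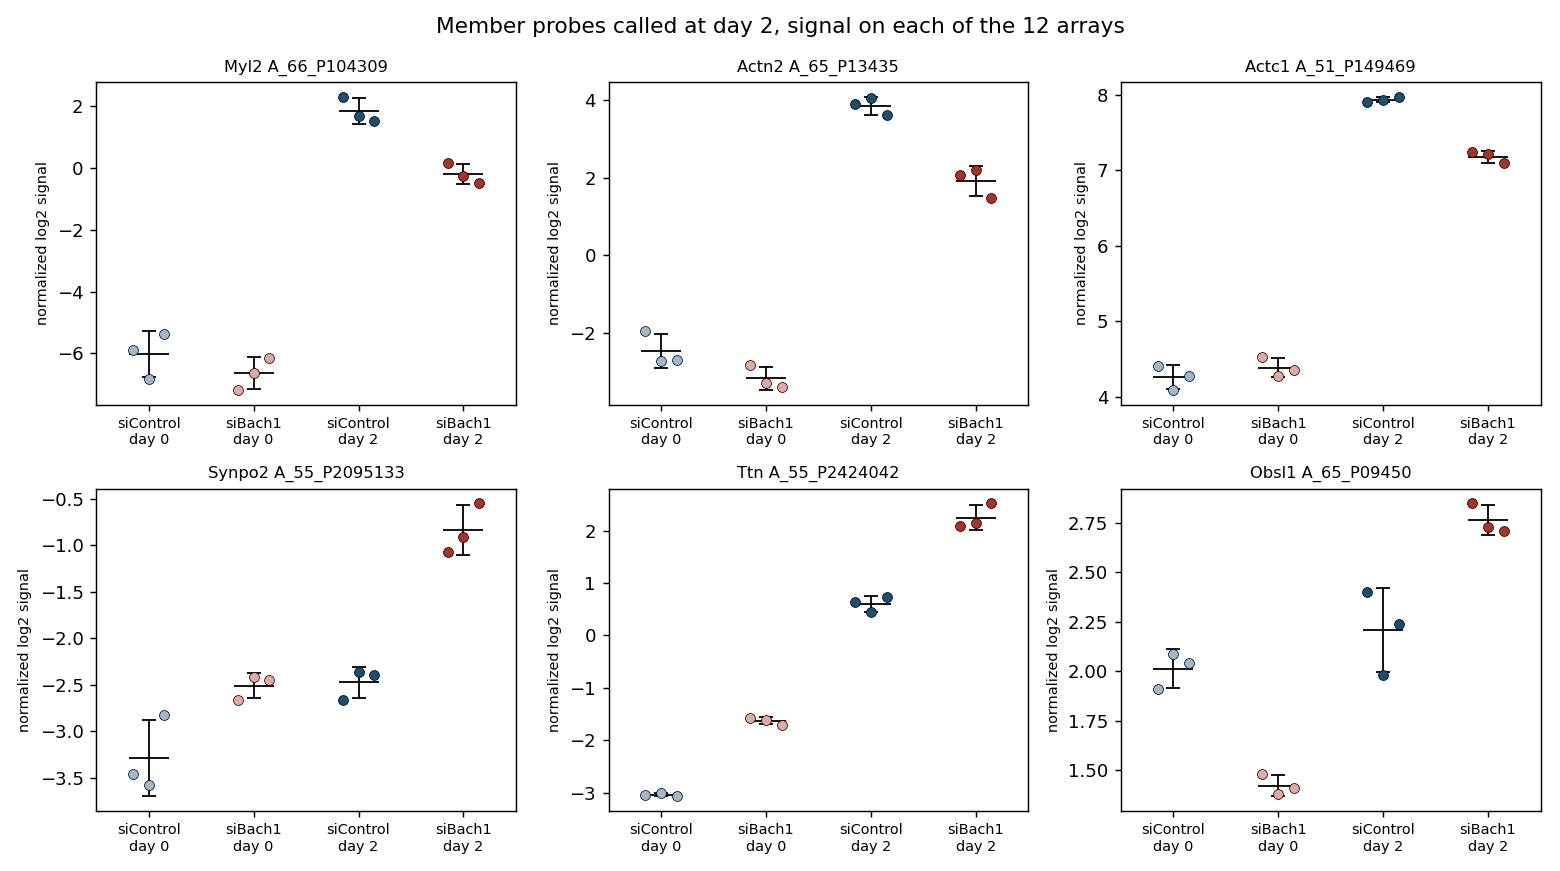
Normalized log2 signal (vertical axis, own scale in each panel) of 6 member probes on each of the 12 arrays. Points are arrays, the bar is the mean of 3 arrays and the whiskers 1 SD. At day 2 the siBach1 arrays lie below all siControl arrays for Myl2, Actn2 and Actc1 and above them for Synpo2, Ttn and Obsl1.

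The higher probes came from genes with several probes each, and in none of these genes did all tested probes pass. For titin, A_55_P2424042 was 0.63, 0.44 and 0.73 in siControl and 2.08, 2.14 and 2.52 in siBach1 cells at day 2, higher by 1.65 (standard error 0.12, limma adjusted p = 7e-05). The other 5 titin probes gave -0.38, -0.15, -0.14, 0.04 and 0.32, and none of these passed. Synpo2 A_55_P2095133 was -2.66, -2.36 and -2.39 against -1.07, -0.91 and -0.55, higher by 1.63 (standard error 0.20, limma adjusted p = 0.0012). A second Synpo2 probe, A_52_P223127, was -1.67, -1.58 and -1.76 against -0.97, -1.06 and -0.91, higher by 0.69, and the third, A_51_P119776, gave 0.08 with a 95% interval of -0.14 to 0.29. Both rises shrank under a normexp background correction, to 1.02 and 0.42, and still passed. Obsl1 was higher on A_52_P286002, at 0.29, -0.04 and 0.34 against 0.95, 0.73 and 0.75 (0.61, standard error 0.14, limma adjusted p = 0.019), and on A_65_P09450, at 2.40, 1.98 and 2.24 against 2.85, 2.73 and 2.71 (0.56). Its probes A_52_P661982 and A_51_P479583 gave 0.09 and -0.31. The groups did not overlap on the first pair. Without siBach1 day 2 replicate 1 or siControl day 2 replicate 2, limma gave A_52_P286002 an adjusted p of 0.076 or 0.052.

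Ldb3 A_51_P265348 was 1.89, 1.56 and 1.67 in siControl and 2.55, 2.43 and 2.18 in siBach1 cells, higher by 0.68 (standard error 0.16, limma adjusted p = 0.023), and its other probe A_65_P11603 lay at -0.27. The Ldb3 call was lost without siBach1 day 2 replicate 1 or 2 or siControl day 2 replicate 2 or 3, with limma adjusted p between 0.065 and 0.089. Tpm3 was called in both directions. A_55_P2933119 was 1.48, 1.29 and 1.32 against 0.72, 0.94 and 0.75, lower by 0.56 (standard error 0.12, limma adjusted p = 0.018), and A_51_P462153 was 0.90, 0.86 and 0.72 against 1.30, 1.55 and 1.12, higher by 0.50 (standard error 0.13, limma adjusted p = 0.033). The other 3 probes did not pass, at -0.23, -0.02 and 0.62, the last with groups of 1.96, 2.14 and 1.61 and 2.71, 2.74 and 2.14 that overlapped. Leaving out siControl day 2 replicate 1 took the limma adjusted p of A_55_P2933119 to 0.067, and leaving out siBach1 day 2 replicate 1 or 3 took it to 0.071 or 0.057.

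By role, the direction at day 2 was mixed within the thin filament, where 11 of 22 probes lay below 0 and the median was 0.01, and in titin and the M-band genes, where the median was 0.02. Of all tested probes 48.1% lay above 0. Among the thick filament light chains and binding proteins 12 of 14 probes lay below 0, with a median of -0.26. Beside Myl2, Mybph gave -0.67 and -0.65 and Mybpc1 -0.94, none of which passed. All 6 probes of the ankyrin repeat proteins and calpain lay below 0, led by Ankrd23 at -1.17 (limma adjusted p = 0.18) and Ankrd2 at -0.88 (limma adjusted p = 0.079), and none passed. In the Z-disc 16 of 24 lay below 0. Myoz2 gave -0.74, -0.71 and -0.64 and Tcap -0.55, short of the threshold. The 3 Smpx probes went the other way, at 0.59, 0.63 and 0.51, with no overlap between the groups, and none passed (limma adjusted p = 0.13, 0.31 and 0.23). Probes of Tpm1 (-0.14 to 0.26), Tpm2 (-0.26 and 0.04), Myl1 (-0.09 to 0.07), Pdlim5 (-0.16 to 0.19) and Flnc (-0.18 and 0.02) lay on both sides of 0 and none passed.

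With the replicate number as a block, since same-numbered arrays deviated together, 25 member probes passed at day 2. Of these 10 were higher and 15 lower, where 9.79% and 11.6% of all tested probes passed in that fit. All 13 probes called without the block were among the 25. The probes added belonged to Acta1, Actn3, Ankrd23, Mybpc1, Mybph, Myoz2 and Tpm3 on the lower side and to Lmod3, Smpx and Tpm3 on the higher side, with limma adjusted p between 0.013 and 0.0498. The member median was -0.05 on slide 1 alone and -0.22 on slide 2 alone, which held a single array of each condition. Without siBach1 day 2 replicate 1 the count of higher probes was 4 instead of 7, and without siBach1 day 2 replicate 3 that of lower probes was 4 instead of 6. The myogenic factors moved with this comparison: the log2 fold change of Myog was -0.98 and that of Myod1 -0.48 (limma adjusted p = 0.016 and 0.036). The summed level of the 6 myoblast markers, which include Des, was 8.36 to 8.46 in siControl and 7.84 to 7.89 in siBach1 cells on the log2 scale at day 2, and 6.60 to 6.67 and 6.90 to 6.97 at day 0. This myoblast sum follows its brightest probes, so it cannot be read as myoblast content. Its largest term with siControl at day 2 was Myog, whose mean was 7.28, against 2.43 before induction. Silencing left Myog at 6.31, while Cdh15 went from 6.79 to 6.54. Pax7, at -2.12 and -3.19, added little. For the 5 cell cycle markers the summed level at day 2 was 4.87 to 5.75 with siControl and 4.89 to 5.19 with siBach1. Smooth muscle markers summed to 9.38 to 9.61 and 9.29 to 9.53. The part of these levels in the member changes was not tested.

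In myoblasts at day 0, before most of these genes had risen, 13 of 89 member probes were higher and 4 lower in siBach1 than in siControl cells, where 8.8% and 8.33% of all tested probes were. Titin, Pdlim3, Pdlim5, Capn3, Lmod3, Synpo2, Myom2 and Myl1 were higher on at least 1 probe, and Xirp2, Tcap and Obsl1 were lower. Past the test and at least 2-fold, 1 was higher and 2 lower, against 0.81% and 1.98% of all. The groups did not overlap on 18 higher and 10 lower probes, against 21.9% and 15.4% of all. The member median was 0.12, close to the 0.09 of all tested probes, and with 1 probe per gene 5 of 46 genes were higher and 3 lower.

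The titin probe A_55_P2424042 was -3.05, -3.01 and -3.06 in siControl and -1.58, -1.61 and -1.70 in siBach1 cells, higher by 1.41 (standard error 0.12, limma adjusted p = 5.5e-05), so that it was the one member probe higher at both days by over 1 on the log2 scale. Under a normexp background correction it was higher by 0.88. A_51_P219312 of titin was -1.03, -0.97 and -0.94 against -0.07, -0.23 and -0.25, higher by 0.79 (standard error 0.10, limma adjusted p = 0.00056). The other 4 titin probes gave -0.46, -0.29, 0.48 and 1.00 and did not pass without a block. Pdlim3 was 4.66, 4.48 and 4.33 against 5.52, 5.56 and 5.28 on A_52_P579531 and -0.56, -0.53 and -0.62 against 0.21, 0.05 and 0.90 on A_55_P2737992. Both were higher by 0.96 (limma adjusted p = 0.00024 and 0.0062) and neither overlapped. Pdlim5 was higher by 0.59 and 0.51 on 2 probes, with -0.08 on the third.

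Capn3 was higher on both tested probes. A_55_P2010066 gave -0.62, -0.78 and -0.81 in siControl and 0.06, 0.02 and 0.16 in siBach1 cells, higher by 0.81 (standard error 0.08, limma adjusted p = 0.00012), and A_51_P423859 gave -2.15, -2.13 and -2.42 against -1.47, -1.62 and -1.42, higher by 0.73. Lmod3 was 1.09, 0.77 and 0.38 against 1.93, 1.58 and 1.52, higher by 0.93 (standard error 0.21, limma adjusted p = 0.013). On these probes no siControl array reached a siBach1 array. Synpo2 A_55_P2095133 was -3.46, -3.58 and -2.82 against -2.66, -2.42 and -2.45, higher by 0.78 (standard error 0.20, limma adjusted p = 0.025). Its other probes gave 0.25 and 0.20. Its call was lost without siControl day 0 replicate 1 or 2 or siBach1 day 0 replicate 2 or 3, with limma adjusted p between 0.073 and 0.097. Myom2 A_51_P431785 was 3.29, 2.51 and 2.87 against 3.70, 3.28 and 3.70, higher by 0.67 (standard error 0.19, limma adjusted p = 0.037), while its dim probe A_52_P322523 was well above background on 1 of the 6 day 0 arrays. Without siBach1 day 0 replicate 1 or 3 or siControl day 0 replicate 2 or 3 the limma adjusted p of Myom2 lay between 0.084 and 0.12. Myl1 was higher by 0.58 and 0.53 on 2 of 4 probes, with 0.51 and 0.20 on the others.

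On the lower side, Xirp2 was -3.58, -3.46 and -3.94 in siControl and -4.86, -4.29 and -5.86 in siBach1 cells. It was well above background on 2 of the siControl and none of the siBach1 arrays, and was at least 1.60-fold lower (limma adjusted p = 0.016). Tcap was -1.61, -2.79 and -2.21 against -3.47, -3.72 and -2.83, lower by 1.13 on the log2 scale (standard error 0.32, limma adjusted p = 0.034). With a normexp background correction neither passed, at -0.12 for Xirp2 and -0.41 for Tcap (limma adjusted p = 0.31 and 0.21). The Xirp2 call was also lost without siControl day 0 replicate 1 or 2 (limma adjusted p = 0.052 and 0.061), and the Tcap call without siControl day 0 replicate 1 or 3 or siBach1 day 0 replicate 1 or 2 (limma adjusted p between 0.076 and 0.12). Obsl1 was lower on A_52_P661982, at 0.59, 0.58 and 0.66 against -0.16, -0.36 and -0.38 (-0.91, standard error 0.12, limma adjusted p = 0.00062), and on A_65_P09450, at 1.91, 2.09 and 2.04 against 1.48, 1.38 and 1.41 (-0.59). Its other probes, A_52_P286002 and A_51_P479583, gave -0.43 and -0.55 and did not pass without a block. On all 4 the siBach1 arrays lay below the siControl arrays without overlap.

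The remaining members did not pass at day 0 without a block. Among them Tpm2 (-0.08 and 0.23), Tpm3 (-0.29 to 0.00), Mylpf (-0.16 and 0.05), Ldb3 (-0.01 and 0.34) and Des (-0.07 and 0.34) had probes on both sides of 0. Myoz2 gave -0.54 and -0.39, and its A_52_P403266 was well above background on no day 0 array. With the replicate number as a block 21 member probes were higher and 9 lower, the 17 called without it all included, where 16.2% and 11.3% of all tested probes were called. The probes that this fit added were higher for Tpm1 (limma adjusted p = 0.0052 for A_55_P2187053 and 0.039 for A_66_P105457), Tpm2 A_55_P2121408 (0.0495), Ldb3 A_51_P265348 (0.026), Myl1 A_55_P2499158 (0.022), Myl3 (0.015), Xirp1 (0.0073) and Ttn A_66_P130044 (0.04). They were lower for Actn2 A_65_P13435, Ankrd1 (limma adjusted p = 0.015), Tpm3 A_51_P462153 (0.048) and the Obsl1 probes A_51_P479583 and A_52_P286002 (0.027 and 0.037). The member median was 0.09 on slide 1 and 0.05 on slide 2. The count of lower probes was 2 without siControl day 0 replicate 1. Cell cycle markers summed to 7.42 to 7.54 in siControl and 7.09 to 7.13 in siBach1 cells, with Ccna2 at -0.89 and -0.76 (limma adjusted p = 0.0040 and 0.017), and their part in the member changes was not tested.

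The design also asks whether silencing acted alike at the 2 days. The difference between the siBach1 effects at day 2 and day 0 passed the test for 9 member probes, 3 more positive and 6 more negative at day 2, where 2.39% and 2.2% of all tested probes passed. With at least 2-fold required as well, 2 positive and 1 negative probe passed, where 0.982% and 0.459% of all did. The member median of this difference was -0.27, against -0.07 for all tested probes. The 3 positive ones were all Obsl1. Its probe A_65_P09450 was lower by 0.59 at day 0 and higher by 0.56 at day 2, a difference of 1.15 (standard error 0.15, limma adjusted p = 0.0079). A_52_P286002 differed by 1.04 and A_52_P661982 by 0.99 (limma adjusted p = 0.02 and 0.014), of which the first was -0.48, -0.54 and -0.21 in siControl and -0.66, -0.84 and -1.0 in siBach1 cells at day 0 and the second 2.21, 1.79 and 2.13 against 2.25, 2.10 and 2.05 at day 2. The fourth Obsl1 probe, A_51_P479583, gave 0.24. Without siBach1 day 2 replicate 1 the limma adjusted p of A_52_P286002 was 0.056.

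On the negative side, Pdlim3 A_52_P579531 was higher at day 0 and lower at day 2, with a difference of -1.48 (standard error 0.15, limma adjusted p = 0.0029), and A_55_P2737992 gave -1.02 (limma adjusted p = 0.057). The 2 Capn3 probes were higher at day 0 and not past the test at day 2, and differed by -0.93 and -0.84 (limma adjusted p = 0.0049 and 0.018). On the day 2 arrays A_55_P2010066 was 1.86, 1.89 and 1.97 in siControl and 1.83, 1.75 and 1.79 in siBach1 cells, with groups that did not overlap but a difference of -0.12. A_51_P423859 was 0.22, 0.24 and 0.48 against 0.26, 0.17 and 0.18. Actc1 was 4.41, 4.09 and 4.28 in siControl and 4.52, 4.27 and 4.35 in siBach1 cells at day 0, where the groups overlapped, and its effect differed by -0.88 (standard error 0.14, limma adjusted p = 0.012) between the days. Titin A_51_P219312 differed by -0.76 (standard error 0.14, limma adjusted p = 0.02). It was 1.50, 1.19 and 1.53 in siControl and 1.50, 1.39 and 1.44 in siBach1 cells at day 2, where the groups overlapped. Over all 6 titin probes the difference ran from -0.76 to 0.24, 3 of them lay above 0 and no other passed. Pdlim5 A_55_P2056236 was 1.08, 0.85 and 0.60 against 1.47, 1.35 and 1.48 at day 0 and 3.46, 3.30 and 3.32 against 3.26, 3.30 and 3.03 at day 2, a difference of -0.75 (standard error 0.18, limma adjusted p = 0.043). Over the 3 Pdlim5 probes the difference ran from -0.75 to 0.27, 1 of them lay above 0 and no other passed without a block.

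**Figure D5:**
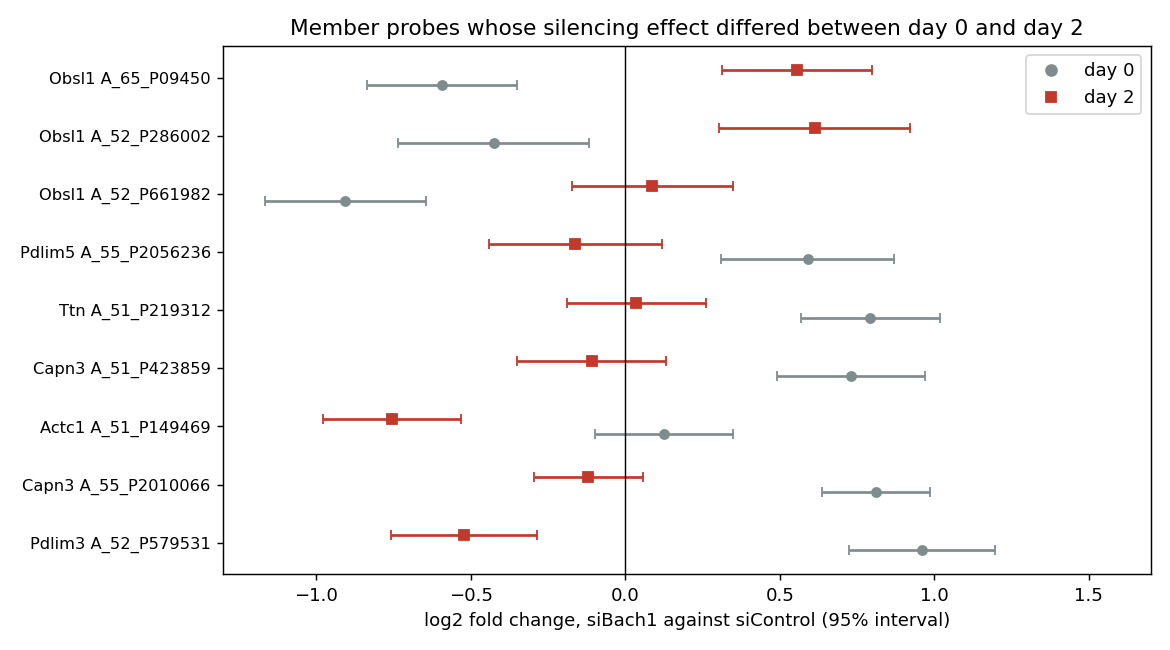
Log2 fold change of siBach1 against siControl (horizontal axis) at day 0 (circles) and day 2 (squares) for the 9 member probes whose effect differed between the days; whiskers are 95% intervals from the fit over 12 arrays. The 3 Obsl1 probes lie further right at day 2, and the other 6 probes further left.

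The titin call was lost without siControl day 0 replicate 1 or 2 or siControl day 2 replicate 1, with limma adjusted p between 0.050 and 0.053, and the Pdlim5 call on leaving out any 1 array other than siControl day 0 replicate 1, with limma adjusted p between 0.065 and 0.096. With the replicate number as a block 5 probes passed on the positive and 12 on the negative side, all 9 included, where 5.17% and 7.86% of all tested probes passed. The probes added by the replicate block belonged to Synpo2 and Tpm3 on the positive side and to Actn2, Pdlim3, Pdlim5, Tpm1 and Xirp1 on the negative side. Their limma adjusted p lay between 0.0093 and 0.048. The member median of the difference was -0.26 on slide 1 and -0.30 on slide 2. The effect on Actn2 A_65_P13435, which passed without a block at day 2 and not at day 0, missed the threshold for a difference between the days without a block and passed with it (-1.22, limma adjusted p = 0.085 and 0.022). For Myl2 and Actn2 A_51_P108266, which were well above background on at most 1 array of day 0, no difference between the days is given. Without a block, probes of Tpm1 (-0.46 to 0.04), Tpm3 (-0.27 to 0.73), Ldb3 (-0.27 and 0.34), Synpo2 (-0.12 to 0.85) and Ankrd23 (-0.48 and 0.02) lay on both sides of 0 and did not pass. The same held for the fitted values of Neb (-0.50 to 0.40), whose A_55_P2718815 was well above background on no day 0 array.

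For none of the 11 untested member probes were all 3 arrays of any condition well above background. Myotilin (Myot), a Z-disc protein that binds alpha-actinin, had a single probe and so was the 1 gene not tested; it was well above background on 1 siControl and 2 siBach1 arrays of day 2 and on none of day 0. The others were 2 of the 3 Tmod4 probes, 3 of the 4 Mybpc1 probes and 1 probe each of Myom1, Smpx, Capn3, Actn2 and Myl4, with signals from -7.34 to -1.80 over the 12 arrays.

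Related genes outside the set were read from lists by family. Over all tested probes, 24.6% rose and 28.7% fell from day 0 to day 2 in siControl cells. At day 2, 5.75% of them were higher and 6.26% lower in siBach1 than in siControl cells. Of 15 troponin probes all rose from day 0 to day 2 in siControl cells. Where at least 1 siControl array of day 0 was well above background, the rise was 2.80 to 6.03. Both ends came from partly detected probes, A_55_P2502861 of Tnni3 on 2 and A_55_P2715371 of Tnnt2 on 1 of those 3 arrays. At day 2 no troponin probe was higher and 4 were lower in siBach1 cells. Of 12 myosin heavy chain probes 11 rose, and 4 were lower in siBach1 cells at day 2, with a median of -0.83. Of 42 probes of other sarcomere and assembly genes, 4 were higher and 5 lower at day 2. Of these, the formin Fhod3 was higher by 1.08, while the small heat shock protein Hspb7 was at -1.77 and -1.92 and Pdlim7 at -0.69 and -0.71 on 2 of 3 probes. Each of these values passed the test. Of 42 probes of non-muscle and smooth muscle counterparts, 20 rose and 8 fell over differentiation in siControl cells, with a median of 0.23, and 1 was higher and 7 lower in siBach1 cells at day 2. The tropomyosin Tpm4, the non-muscle counterpart of the set's tropomyosins, was at -0.86 at day 0 and -0.47 at day 2, and vinculin (Vcl) at -0.89 and -0.60 on 1 of its 2 probes, both past the test at both days. The smooth muscle actin Acta2 rose over differentiation on all 4 probes, by 1.46 to 2.52 on 3 of them, and was at least 6.73-fold higher on A_52_P644232, which was below background on all siControl arrays of day 0 (limma adjusted p = 1.6e-06).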

How the data were processed

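RNA from 12 C2C12 samples was labelled with cyanine 3 and hybridised to one-colour SurePrint G3 mouse 8x60K v2 arrays (Agilent), and the authors deposited the scanner intensity of each spot, extracted with Feature Extraction (9.1 in the submitters' processing notes, 10.7.3.1 in the file headers). The authors also deposited normalized log2 values made in GeneSpring, which differed by at most 0.00449 from the recomputed values once each probe's median over the 12 arrays had been subtracted. Groups came from the labels. Control and outlier spots were dropped, log2 of the processed intensity was averaged over spots of a probe, and the 75th percentile of each array was subtracted. A probe was kept where some condition had all 3 of its arrays well above background, and kept probes entered 1 limma fit (lmFit and eBayes, limma 3.58.1 in R 4.3.3) with 4 group means and no block. A probe passed at a Benjamini-Hochberg adjusted p under 0.05 over 29644 probes. The methods named a Student's t-test, which was run as an alternative. The number of arrays limits the precision, and fold changes of dim probes depend on the background correction.

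In 1 simulation of siBach1 against siControl at day 2 over 29644 probes, 20.9% of changes of 0.5 on the log2 scale, 71.6% of changes of 1 and 95.5% of changes of 2 were recovered, and for the difference between the days 1.49%, 52.2% and 78.8%. It changed only 67, 67 and 66 probes by these sizes and drew each value independently. In the data 5.75% of all tested probes were higher and 6.26% lower at day 2, so the adjusted threshold was not the same and these rates do not carry over directly. Same-numbered samples deviated together (correlation of deviations 0.142 to 0.595 over 18 pairs, against -0.443 to 0.265 over 36 other pairs). The number was therefore also fitted as a block, while the main counts come from the fit without a block. Each replicate number had its own slide and row, so shared cultures and shared position cannot be told apart. For a fold against a group with no array well above background, the dim value on each array was the higher of its own signal and the lowest signal well above background. Where a gene was counted once, its probe was the one with the highest mean over all arrays.

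The members, their roles, the lists of related genes and markers and the motifs were chosen with earlier results of these data known. Values in every array were given for up to 12 member probes per comparison of the siRNAs, by absolute log2 fold change among those that passed, and for the 5 largest and 5 smallest changes between the days in siControl cells. Member genes whose probes differed in call or sign were named with all tested probes, some as a range. This was not done for the change between the days in siBach1 cells. Fhod3, Hspb7, Pdlim7, Tpm4, Vcl and Acta2 were named after their values were seen. Versions of other tools were Python 3.11, pandas 2.3.3, numpy 2.4.6 and scipy 1.17.1. Promoters came from RefSeq on GRCm38.p6, and all 47 symbols were found in its gene table.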

Additional observations from a re-analysis of the deposited data

Results flagged for a closer look

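The siBach1 effects at day 0 and day 2 differed in a limma test of the difference itself for 9 of the 89 tested member probes. The difference of log2 fold changes, day 2 minus day 0, was -1.48 for Pdlim3 A_52_P579531, -0.93 and -0.84 for Capn3 A_55_P2010066 and A_51_P423859, -0.88 for Actc1, -0.76 for Ttn A_51_P219312 and -0.75 for Pdlim5 A_55_P2056236. For Obsl1 it was 1.15 on A_65_P09450, 1.04 on A_52_P286002 and 0.99 on A_52_P661982. The other tested probes of Pdlim3, Ttn, Pdlim5 and Obsl1 did not pass, and some of those of Ttn and Pdlim5 lay above 0. Single arrays far from the others were not looked for, since each condition held 3 arrays.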

How the results depend on the processing

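No result changed direction under any alternative run. Of the values of single probes, 593 kept their call and 79 lost it, and 134 counts stayed within 1.5 times the reported one while 42 did not. Member probes higher and lower in siBach1 cells at day 0 (13 and 4) were 21 and 9 with the replicate number as a block, 21 and 9 with the slide as a block, 8 and 2 without the filter on low signal, 6 and 2 with the methods' t-test after adjustment, 1 and 2 with a fold of at least 2, 5 higher with 1 probe per gene and 2 lower with only the arrays compared. At day 2 (7 and 6) they were 11 and 15 with normexp, 13 and 24 with the unadjusted t-test, 2 and 3 with a fold of at least 2. Higher probes were 3 with no filter, 4 with the adjusted t-test and 1 with 1 probe per gene, and lower probes 15 with the replicate block, 14 with the slide block and 12 with only the arrays compared. From day 0 to day 2, 41 genes were higher and 1 lower in siControl cells and 42 and 1 in siBach1 cells with 1 probe per gene, and 3 and 2 probes were lower by at least 2-fold. For the difference between days (3 and 6), counts were 5 and 13 with normexp, 5 and 12 with the replicate block, 6 and 10 with the slide block, 0 and 1 in limma with no filter (7 and 15 at an unadjusted p under 0.05), 1 positive with 1 probe per gene and 1 negative at 2-fold. Leaving out 1 array gave 9 to 15 higher and 2 to 4 lower at day 0, 4 to 8 and 4 to 6 at day 2, 75 to 76 and 6 to 6 over days in siControl, 76 to 77 and 4 to 5 in siBach1 cells, and 2 to 4 and 4 to 8 for the difference. Shares of all tested probes are given above for the main fit, for at least 2-fold and for the replicate block. They are not given for the other settings, so those counts cannot be compared with the whole array. The causes of these shifts in count were not tested. Dim probes such as Xirp2 are limited by signal over background.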
